A study of Sus scrofa with 30 samples.

Results

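Transcript levels in the cerebral cortex of 3 pigs taken 180 min after return of spontaneous circulation (ROSC) under saline, the group SAL180, were compared with those of 3 control pigs, CA0. The members are these 6 of the series' 30 Affymetrix porcine arrays, chosen by their labels alone. Pigs were of a Swedish triple breed, of both sexes, prepubertal, 12 to 14 weeks old and 25.8 ± 1.3 kg in weight (mean ± error as labelled), and all were anaesthetised with pentobarbital. In SAL180, ventricular fibrillation was left untreated for 12 min, chest compressions were given for 8 min, and a countershock restored the circulation. Normal saline ran at 55 mL/kg/h from 1 min after the start of resuscitation until 50 min after ROSC, so cortex was taken after the infusion had ended. In CA0 the brain was removed at 0 min of arrest; the labels' protocol describes induced fibrillation for all animals and a final potassium chloride injection. CA0 therefore had no 12 min of arrest, no resuscitation, no infusion and no further 180 min of anaesthesia, and the effects of these cannot be told apart in this comparison. Other groups served only to place the 180 min values: arrest left untreated for 5 min (CA5), 20 min (CA20) or 30 min (CA30), saline with cortex at 30 and 60 min after ROSC (SAL30, SAL60), and cortex at 180 min after the same saline with methylene blue added at 7.5 mg/kg/h (MB180), each with 3 arrays from different animals.

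When blood flow stops and then returns, cells face a loss of ATP, damaged proteins and oxidants. Heat shock factors then induce chaperones of the Hsp70 system, which bind unfolded proteins and pass them on for refolding or degradation. A second, faster programme of immediate early genes codes for transcription factors and short-lived feedback proteins, and in the vessel wall and its matrix secreted proteases and their inhibitors are also induced by such stress.

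Summed marker levels of neurons, astrocytes and oligodendrocytes overlapped between the groups. Oligodendrocyte markers summed to 26935 to 37757 in CA0 and 27317 to 35928 in SAL180. Single ones varied widely within groups, such as MAG at 1257, 2278 and 790 in CA0 and 1092, 772 and 2089 in SAL180. The summed intensity of 7 neuronal markers was 38785 to 44663 in CA0 and 38089 to 42843 in SAL180, and none of the 7 was called. One array stood apart: SAL180 replicate 3 had the highest log2 ratio of 3' to 5' signal of the control transcripts in either group (2.60, against 1.39 to 1.92 on the other 5 arrays) and the lowest median correlation with the other arrays (0.950, against 0.965 to 0.967). The 3'/5' ratio did not differ between the groups beyond their spread (two-sided exact permutation p = 0.8, where 0.1 is the smallest that 3 against 3 arrays allow).

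At 180 min the largest rise in the cortex was that of the chaperone gene HSPA6. A few other chaperone genes, stress-responsive transcription factors, growth arrest genes and secreted matrix proteins also rose, and a short list of transcripts was lower. In a limma fit over all 30 arrays, on log2(intensity + 16), 104 of 16799 probe sets were higher in SAL180 than in CA0 (0.619%) and 43 were lower (0.256%) at an adjusted p under 0.05. Such probe sets are termed called. The 3 arrays of each group did not overlap for 103 of the 104 and for all 43, but a call at this threshold selects for such separation. These counts therefore add no support, and the share without overlap over all probe sets tested is not given here. A median of 1.09 on the log2 scale among the probe sets called higher, and of -1.03 among those called lower, compares with 0.00088 over all probe sets tested. A change of at least 1 on that scale was seen for 63 of those higher and 23 of those lower. Without SAL180 replicate 3 the counts were 72 and 38, without CA0 replicate 2 they were 64 and 27, and without CA0 replicate 3 they were 71 and 25. A fit to these 6 arrays alone called 40 higher and 15 lower, and 16 of the 40 named probe sets called in the fit over all arrays lost their call there (HSP70.2, NFIL3, GADD45B, GGA2, ZFAND2A, HMOX1, ADM, CDKN1A, PLAT, MYC and the falls of TTC14, LUC7L3, POMT2, SLCO2B1, SLA-DMB and ENPEP). The 25 largest rises and the 9 falls with a symbol were chosen among probe sets whose groups did not overlap, so the absence of overlap is a given for them and supports nothing. In bulk tissue, fewer cells of a type and less RNA per cell cannot be told apart.

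**Figure D1:**
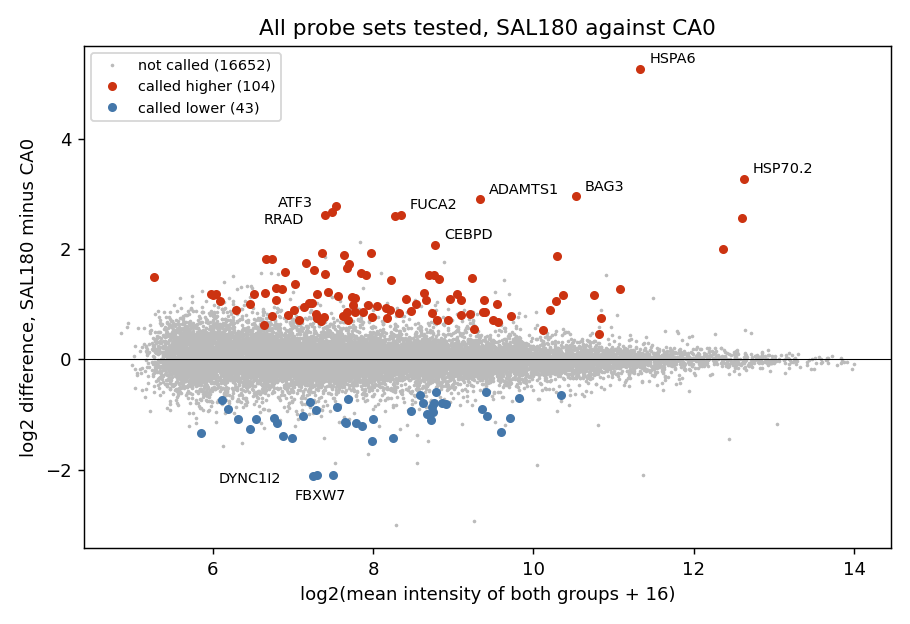
Log2 difference of SAL180 minus CA0 (vertical axis) against the log2 of the mean intensity of both groups plus 16 (horizontal axis) for the 16799 probe sets tested; filled points are the 104 called higher and the 43 called lower. HSPA6 stands apart at 5.27, and most called probe sets lie within 2 units of 0.

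Gene symbols covered the rising transcripts better than the falling ones. Of the 104 probe sets called higher, 65 had a single symbol and stood for 60 genes, and 39 had none that could be used. Of the 43 called lower, 9 had a symbol, for 9 genes, and 34 had none. Among probe sets without a usable symbol, 0.438% were called higher and 0.381% lower, against 0.824% and 0.114% of those with one.

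The Hsp70 system held the largest differences on the log2 scale. HSPA6, a strictly stress-inducible member of the Hsp70 family, had intensities of 138, 128 and 81.1 in CA0 replicates 1 to 3 and of 4886, 5731 and 4404 in SAL180 replicates 1 to 3, the order used throughout. Its mean was 43.3-fold higher in SAL180, and the log2 difference was 5.27 ± 0.20 (standard error from the fit, adjusted p = 4.56e-16). The lowest SAL180 array was replicate 3 and the highest control replicate 1.

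HSP70.2, the pig's inducible cytosolic Hsp70, read 639, 3543 and 613 in CA0 and 11079, 11872 and 10122 in SAL180. It was 6.9-fold higher by group means (log2 difference 3.28 ± 0.39, adjusted p = 1.17e-05), and CA0 replicate 2 was far above the other controls though still below every SAL180 array. Its call was lost in the fit to the 6 arrays alone (adjusted p = 0.0629). Both of its other probe sets were called too, the larger at 2.57 ± 0.35; inducible Hsp70 genes are nearly identical copies, and the array may not separate them. DNAJB1, the Hsp40 partner that stimulates the Hsp70 ATPase, had a high CA0 replicate 2 as well. Its intensities were 436, 867 and 357 in CA0 and 1967, 2063 and 1764 in SAL180 (log2 difference 1.87 ± 0.28, adjusted p = 0.000348).

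BAG3, a co-chaperone that releases substrate from Hsp70 and directs it to autophagy, read 300, 283 and 380 in CA0 and 2217, 3034 and 2573 in SAL180. It was 8.12-fold higher (log2 difference 2.96 ± 0.30, adjusted p = 9.77e-07), and its other probe set also rose, by 1.66 ± 0.30. HSPB8, the small heat shock protein that works with BAG3, changed less, from 696, 962 and 739 to 1891, 2029 and 1509 (log2 difference 1.17 ± 0.15, adjusted p = 3.38e-05). SAL180 replicate 2 was the highest array of both genes. ZFAND2A, a zinc finger protein that binds the proteasome and is induced by heat and arsenite, went from 358, 355 and 204 to 654, 1038 and 901 (log2 difference 1.47 ± 0.22, adjusted p = 0.00028, and 0.0577 in the fit to the 6 arrays alone).

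The rise was uneven across the heat shock proteins and cytosolic chaperones. With 1 probe set per gene, 7 of 33 tested members were called higher and none lower, against 0.914% higher and 0.104% lower over all 5797 genes. The same shares over all genes stand beside the counts of every list below. The list median was 0.21, and that of all genes was 0.015. Besides the 5 members of this list described above, HSPB1, which codes for Hsp27, rose by 1.16 ± 0.20 (adjusted p = 0.00143) and DNAJA4, another Hsp40 protein, by 0.75 ± 0.15 (adjusted p = 0.0101). Abundant constitutive members did not pass the test. HSPA8, the constitutive Hsc70, read 8536 to 9404 in CA0 and 9458 to 9845 in SAL180 (log2 difference 0.11 ± 0.13), and HSP90AA1 differed by 0.09 ± 0.19. HSPH1, an Hsp110 nucleotide exchange factor, read 4844 to 5762 in CA0 and 7244 to 7604 in SAL180, without overlap, and missed the threshold (log2 difference 0.52 ± 0.14, adjusted p = 0.0729).

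**Figure D2:**
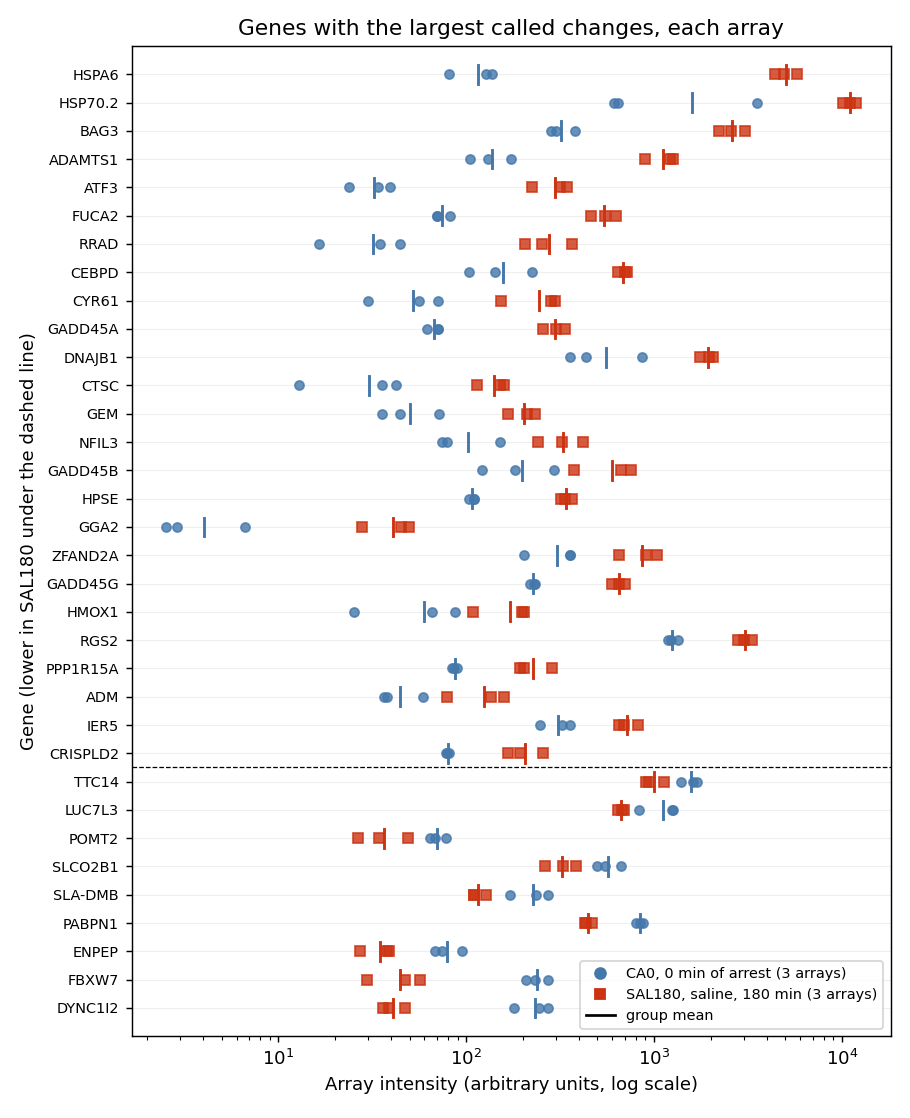
Intensity (arbitrary units, log scale) of each of 25 genes with the largest called rise and of the 9 named genes called lower, under the dashed line; circles are the 3 CA0 arrays, squares the 3 SAL180 arrays and vertical strokes the group means. Genes were chosen for groups that do not overlap; CA0 replicate 2 lies apart from the other controls for HSP70.2 (3543 against 639 and 613).

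Among transcription factors, ATF3, a stress-induced member of the ATF/CREB family, rose most. It went from 34.2, 39.5 and 23.9 in CA0 to 224, 316 and 346 in SAL180, a 9.08-fold difference of means (log2 difference 2.67 ± 0.30, adjusted p = 5.66e-06). CEBPD, which drives acute phase genes and is expressed by reactive astrocytes, read 224, 104 and 142 against 697, 642 and 715 (log2 difference 2.08 ± 0.34, adjusted p = 0.000825). The SAL180 arrays were close together while CA0 replicate 1 was the highest control. NFIL3, a bZIP repressor that also acts on the circadian clock, read 74.4, 152 and 79.5 in CA0 and 420, 322 and 241 in SAL180 (log2 difference 1.57 ± 0.24, adjusted p = 0.000359). The highest control was again apart from the others, and in the fit to the 6 arrays alone the adjusted p was 0.08.

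Of the 14 immediate early transcription factors tested, 4 were called higher and 0 lower, all 14 had a difference above 0, and the median was 0.70. MYC, a growth regulator (0.75 ± 0.17), and FOSL2 (0.78 ± 0.19), the latter a partner of Jun in AP-1, made up the 4 with ATF3 and NFIL3; 2 were called without CA0 replicate 2, without CA0 replicate 3 or without SAL180 replicate 2. FOS, the classic activity-induced partner of Jun, read 1605, 997 and 503 in CA0 and 2157, 3221 and 2915 in SAL180. The groups did not overlap, but the controls were spread widely and the difference of 1.53 ± 0.41 missed the threshold (adjusted p = 0.0797). Without CA0 replicate 1 it passed, at 1.92 (adjusted p = 0.0279). EGR1, an activity-induced zinc finger factor, overlapped between groups, at 2239, 936 and 750 against 1430, 3447 and 2079 (log2 difference 0.89 ± 0.45, adjusted p = 0.6).

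Of 19 early feedback and growth arrest genes tested, 8 were called higher and none lower, against 0.914% and 0.104% of all genes. The list median was 0.97. This was the highest share of calls of the 18 lists, but the lists were chosen with earlier results of these data known, so that rank supports nothing. RRAD, a small GTPase that lowers calcium channel activity, had the largest difference of this list, at 16.5, 34.9 and 44.2 in CA0 and 253, 365 and 207 in SAL180 (log2 difference 2.61 ± 0.37, adjusted p = 0.000171). GEM, a related GTPase outside the list, read 35.5, 71.3 and 44.4 against 212, 232 and 167 (log2 difference 1.75 ± 0.29, adjusted p = 0.00128). SAL180 replicate 2 was the highest array for both GTPases and replicate 3 the lowest of its group.

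All 3 genes of the GADD45 family, small proteins that bind stress kinases and cell cycle regulators, were called. GADD45A had tight controls, at 61.7, 70.6 and 70.8, and read 338, 301 and 255 in SAL180 (log2 difference 1.90 ± 0.19, adjusted p = 1.1e-06). GADD45G was as tight, at 233, 229 and 219 against 597, 652 and 700 (log2 difference 1.45 ± 0.18, adjusted p = 3.38e-05). GADD45B was wider, at 182, 293 and 122 against 668, 757 and 377 (log2 difference 1.54 ± 0.26, adjusted p = 0.00123, and 0.155 in the fit to the 6 arrays alone), and its other probe set gave nearly the same difference, 1.53 ± 0.19.

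Feedback regulators of signalling and translation rose beside them. RGS2, which switches off G proteins of the Gq class, was already high in CA0 (1342, 1183 and 1223) and reached 3339, 2993 and 2789 (log2 difference 1.27 ± 0.17, adjusted p = 9.2e-05). PPP1R15A, a stress-induced subunit of protein phosphatase 1 that restores translation, read 89.6, 84.2 and 86.6 against 194, 285 and 204 (log2 difference 1.23 ± 0.24, adjusted p = 0.00639); without SAL180 replicate 2 it missed the threshold (1.06, adjusted p = 0.063). IER5, an immediate early response gene, read 325, 357 and 247 against 822, 691 and 651 (log2 difference 1.19 ± 0.16, adjusted p = 7.96e-05). Dimmer tested probe sets of IER5 (0.88 ± 0.23, adjusted p = 0.0672) and RGS2 (0.56 ± 0.26, adjusted p = 0.517) were not called.

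CDKN1A, the cyclin-dependent kinase inhibitor p21, was the weakest call of this list (log2 difference 0.93 ± 0.22, adjusted p = 0.0372). It was lost when any array but CA0 replicate 2 was left out (adjusted p = 0.0867 to 0.172), without the filter on low values (adjusted p = 0.0506), with quantile normalization (adjusted p = 0.0587) and with median centring (adjusted p = 0.0555). CDKN1A and GADD45A were the 2 of 10 apoptosis and p53 targets tested that were called, and CDKN1A and CEBPD the 2 of 15 glucocorticoid responsive genes; both counts thus fell to 1 in those settings.

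DDIT3, the transcription factor CHOP of the unfolded protein response, was the single call among 21 genes of the endoplasmic reticulum and integrated stress response, whose median was 0.20. It read 314, 399 and 304 in CA0 and 793, 761 and 633 in SAL180 (log2 difference 1.07 ± 0.15, adjusted p = 9.07e-05). HSPA5, the chaperone BiP of the endoplasmic reticulum, was not called, with CA0 at 3905 to 5166 and SAL180 at 4141 to 6239 (log2 difference 0.20 ± 0.18). XBP1, a transcription factor of the same response, was at 0.32 ± 0.12 (adjusted p = 0.351).

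**Figure D3:**
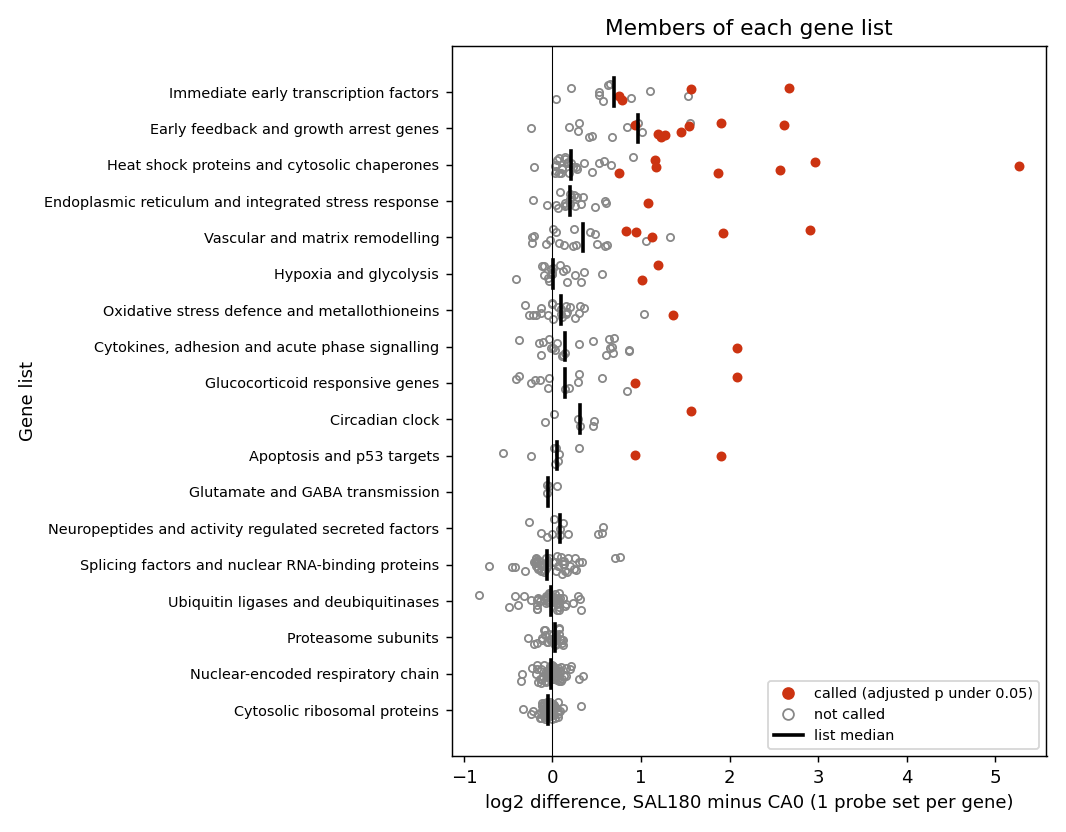
Log2 difference of SAL180 minus CA0 for each tested member of the 18 gene lists, with 1 probe set per gene; filled points were called, open points were not, and black strokes are list medians. The early feedback genes have the highest median (0.97), while respiratory chain, proteasome and ribosomal genes lie in a narrow band about 0.

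The list of vascular and matrix remodelling genes, which holds secreted proteins and receptors, had 5 of 24 tested members called higher, none lower, and a median of 0.34. ADAMTS1, a secreted protease that cuts proteoglycans, read 174, 130 and 105 in CA0 and 890, 1260 and 1213 in SAL180. It was 8.2-fold higher (log2 difference 2.91 ± 0.25, adjusted p = 1.03e-07), and its other probe set rose by 2.59 ± 0.24. CYR61, a matricellular protein that binds integrins, was lower in level and wider, at 70.7, 30 and 56.4 against 153, 296 and 281 (log2 difference 1.92 ± 0.29, adjusted p = 0.000348).

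Both plasminogen activators and an inhibitor of matrix proteases were among the 5. PLAT, the tissue-type activator, rose by 0.83 ± 0.16 (adjusted p = 0.00646; 0.0595 without CA0 replicate 2 and 0.0648 without SAL180 replicate 3), and PLAU, the urokinase type, by 0.94 ± 0.21 (adjusted p = 0.0193). TIMP1, the protease inhibitor, read 125, 119 and 120 in CA0 and 325, 278 and 250 in SAL180 (log2 difference 1.12 ± 0.23, adjusted p = 0.0101). The list's count fell to 2 without CA0 replicate 2 and to 3 without SAL180 replicate 3. VEGFA, the vascular growth factor, was split between probe sets: the brighter one gave -0.20 ± 0.16, while the dimmer one read 493, 483 and 408 in CA0 against 1009, 905 and 655 in SAL180 and was called (0.85 ± 0.18, adjusted p = 0.0124).

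HPSE and CRISPLD2, outside that list, were also among the 25 largest rises. HPSE, the heparanase that cleaves heparan sulphate, had very even controls, at 110, 104 and 110, and read 336, 319 and 368 in SAL180 (log2 difference 1.53 ± 0.18, adjusted p = 1.15e-05). CRISPLD2, a secreted glycoprotein, read 79, 78.5 and 81.4 against 255, 167 and 193 (log2 difference 1.19 ± 0.18, adjusted p = 0.000379). A dim second probe set of HPSE was not called (0.47 ± 0.33).

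ADM and SLC2A3 were the 2 of 21 hypoxia and glycolysis genes called, and that list's median was 0.0018. SLC2A3, the neuronal glucose transporter GLUT3, read 537, 435 and 470 in CA0 and 988, 1117 and 856 in SAL180 (log2 difference 1.01 ± 0.15, adjusted p = 0.000225). ADM, a vasodilator peptide, read 59, 37.8 and 36.4 against 136, 160 and 78.9 (log2 difference 1.20 ± 0.27, adjusted p = 0.0225). ADM lost its call without CA0 replicate 2, CA0 replicate 3, SAL180 replicate 1 or SAL180 replicate 2 (adjusted p = 0.117 to 0.174), which left 1 gene called. LDHA, a glycolytic enzyme induced by hypoxia, differed by -0.0043 ± 0.26, and SLC2A1, the glucose transporter of the blood-brain barrier, by 0.0018 ± 0.13.

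HMOX1, the haem-degrading enzyme heme oxygenase 1, was the single call among 24 genes of oxidative stress defence (median 0.097). It read 25.4, 87.1 and 65.5 in CA0 and 109, 199 and 204 in SAL180, a narrow gap (log2 difference 1.36 ± 0.30, adjusted p = 0.0204). Without CA0 replicate 1, SAL180 replicate 2 or SAL180 replicate 3 its adjusted p was 0.18, 0.124 and 0.126, and no gene of the list was called. SOD2, the mitochondrial superoxide dismutase, was at 0.36 ± 0.17, and the metallothionein MT1A at 1.03 ± 0.44 (adjusted p = 0.449), with 201, 138 and 172 in CA0 and a wide 420, 229 and 485 in SAL180.

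CEBPD was the only member called of 23 cytokine, adhesion and acute phase genes tested, and 8 more, among them IL6, TNF and CXCL8, lay below the filter on low values. ICAM1, an endothelial adhesion molecule, read 158 to 196 in CA0 and 271 to 303 in SAL180 without passing (log2 difference 0.67 ± 0.26, adjusted p = 0.356). PTGS2, the inducible cyclooxygenase, overlapped and differed by -0.11 ± 0.30, and NOS2, the inducible nitric oxide synthase, was near the filter on most arrays (log2 difference 0.86 ± 0.30, adjusted p = 0.261), with its other tested probe set at -0.33 ± 0.33. NFIL3 was the single call among 7 clock genes, and none was called in the fit to the 6 arrays alone; PER1, a clock gene that also responds to activity, was at 0.29 ± 0.14.

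The remaining 7 lists had no called member on the probe set used for lists. Their medians were -0.05 for 4 glutamate and GABA genes, 0.09 for 12 neuropeptide and activity-regulated genes, -0.06 for 50 splicing and nuclear RNA-binding genes, -0.01 for 47 ubiquitin ligases and deubiquitinases, 0.03 for 33 proteasome subunits, -0.01 for 64 nuclear-encoded respiratory chain genes and -0.05 for 62 ribosomal proteins. Single differences stayed between -0.35 and 0.34 for the respiratory chain genes and between -0.33 and 0.32 for the ribosomal proteins.

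FUCA2, CTSC and GGA2 were the remaining genes of the 25 largest rises. FUCA2, a fucosidase of the lysosome and of secretions, was clear, at 70, 69.7 and 82.4 in CA0 against 459, 624 and 547 in SAL180 (log2 difference 2.63 ± 0.24, adjusted p = 1.87e-07). CTSC, the lysosomal protease cathepsin C, rose on its named probe set (35.7, 12.9 and 42.2 against 114, 152 and 158, log2 difference 1.82 ± 0.36, adjusted p = 0.00707) but not on its brightest (0.06 ± 0.25). A dimmer tested probe set was at 1.16 ± 0.33 without passing (adjusted p = 0.113). Without CA0 replicate 2 the call of the named probe set was lost (adjusted p = 0.0826). GGA2, a sorting adaptor of the Golgi, read 2.53, 2.91 and 6.62 in CA0, near the bottom of the scale, and 49.6, 45.1 and 28 in SAL180 (log2 difference 1.49 ± 0.30, adjusted p = 0.00861). Its brighter probe set went the other way without passing, from a mean of 543 ± 10.3 to 425 ± 55.3 (SD, n = 3). With a pseudocount of 64 the difference was 0.62 (adjusted p = 0.0613), and without CA0 replicate 2, SAL180 replicate 1 or SAL180 replicate 2 the adjusted p was 0.0502 to 0.0663.

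**Figure D4:**
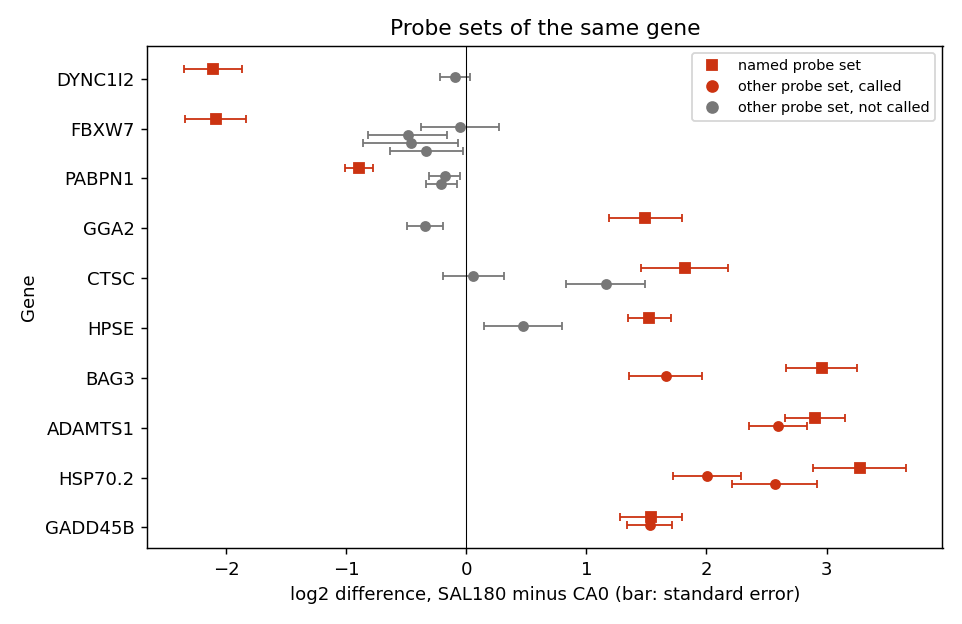
Log2 difference of SAL180 minus CA0 with its standard error for the named probe set (square) and the other tested probe sets (circles, red if called) of 10 genes. Probe sets of BAG3, ADAMTS1, HSP70.2 and GADD45B were called together, whereas DYNC1I2, FBXW7, PABPN1, CTSC, HPSE and GGA2 were called on the named probe set alone.

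Among the 9 genes called lower, DYNC1I2 and FBXW7 fell most, and they and PABPN1 did so on a single probe set of the gene. DYNC1I2, an intermediate chain of the motor dynein, went from 180, 243 and 272 in CA0 to 36.3, 47.2 and 38.9 in SAL180, 5.68-fold lower (log2 difference -2.11 ± 0.24, adjusted p = 9.25e-06). FBXW7, which selects substrates for an SCF ubiquitin ligase, went from 209, 273 and 232 to 56.6, 47.1 and 29.7, 5.35-fold lower (log2 difference -2.09 ± 0.25, adjusted p = 1.93e-05). PABPN1, the nuclear poly(A)-binding protein, was tight in both groups, at 801, 841 and 871 against 466, 433 and 430 (log2 difference -0.90 ± 0.12, adjusted p = 4.88e-05). Their other tested probe sets were not called. For DYNC1I2 the other one, brighter at a mean of 1593 ± 190 in CA0 (SD, n = 3), was at -0.097 ± 0.12 (adjusted p = 0.937). For FBXW7 the other 4, all brighter, ranged from -0.49 to -0.05, and for PABPN1 the other 2 were at -0.18 and -0.21.

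The other 6 genes fell by 0.65 to 0.91. LUC7L3, a splicing factor, read 827, 1267 and 1240 in CA0 and 672, 695 and 640 in SAL180 (log2 difference -0.69 ± 0.14, adjusted p = 0.0106). TTC14 fell from 1399, 1607 and 1686 to 1128, 943 and 911 (log2 difference -0.65 ± 0.12, adjusted p = 0.00385), and it kept its call whichever array was left out but not in the fit to the 6 arrays alone (adjusted p = 0.149). POMT2, an O-mannosyltransferase of the endoplasmic reticulum, fell from 78.3, 64.3 and 68.5 to 34.6, 26.4 and 49.1 (log2 difference -0.73 ± 0.17, adjusted p = 0.0246).

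Membrane and antigen presentation genes made up the rest. ENPEP, an aminopeptidase of vessels that cleaves angiotensin II, fell by 0.91 ± 0.19 (adjusted p = 0.0107); SLA-DMB, which helps load peptides on class II molecules, by 0.86 ± 0.20 (adjusted p = 0.0247); and SLCO2B1, an organic anion transporter, by 0.79 ± 0.17 (adjusted p = 0.015). The calls of LUC7L3, POMT2, ENPEP, SLA-DMB and SLCO2B1 were each lost on leaving out at least 1 array, with adjusted p up to 0.11, 0.209, 0.098, 0.198 and 0.141. SLA-DMB belongs to antigen-presenting cells, such as microglia in the brain. The summed intensity of 5 tested microglial markers was 2326 to 3876 in CA0 and 1639 to 2008 in SAL180. These ranges did not overlap (two-sided exact permutation p = 0.1, the smallest possible). None of the 5 was called. P2RY12, a purinergic receptor of resting microglia, differed most (-1.14 ± 0.33, adjusted p = 0.124), with 723, 755 and 1559 in CA0 against 469, 320 and 494, and TYROBP, a signalling adaptor, least (-0.06 ± 0.25). ITGAM lay below the filter, and the part of these markers in the result was not tested.

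Markers of other cells that could add to the rises were also summed. Leukocyte markers stood at 97.2 to 137 in CA0 and 181 to 250 in SAL180, again without overlap, but rested on 2 of 9 members, CD14 and LCP1. The others, including PTPRC, CD3E, S100A8 and S100A9, lay below the filter. Endothelial markers were at 2590 to 2958 against 2935 to 3489, with none of 9 called, and their mean log2 level was 7.72 to 7.78 against 7.87 to 8.08. Smooth muscle and pericyte markers, with none of 6 called, summed to 3537 to 5075 in CA0 and 4396 to 4921 in SAL180. Their mean log2 level was 8.85 to 9.07 against 9.11 to 9.19, and single differences ran from -0.37 (RGS5) to 0.50 (TAGLN). Both mean levels were without overlap (two-sided exact permutation p = 0.1 each). CLDN5, the tight junction protein of brain endothelium, was at 0.67 ± 0.24 (adjusted p = 0.286), the largest difference of the 9 endothelial markers. Their median was 0.14, and TEK (-0.23), TIE1 (-0.21) and ABCG2 (-0.03) were below 0. Red blood cell markers were at 1157 to 1319 against 738 to 1248. The part of these markers in the rises of CEBPD, ADAMTS1 and the other vascular genes was not tested. GFAP, the filament of astrocytes, and MBP of myelin differed by 0.05 ± 0.23 and -0.02 ± 0.22 on their brightest probe sets. Dimmer tested probe sets of MBP were at 0.50 ± 0.23 and 0.50 ± 0.27, and those of GFAP ran from 0.0017 to 0.38. None of these was called.

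Among probe sets without a usable symbol, the one with the largest rise read 18.7, 31.6 and 36 in CA0 and 156, 357 and 422 in SAL180 (log2 difference 2.78 ± 0.46, adjusted p = 0.00105). Another of them was the single called probe set whose groups overlapped, with CA0 at 35.1, 41.1 and 279 and SAL180 at 469, 328 and 264. The largest fall was at 228, 316 and 248 against 76.3, 7.19 and 111 (log2 difference -2.10 ± 0.40, adjusted p = 0.00459). SAL180 replicate 2 was by far the lowest array of that probe set.

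Untreated arrest gave a second baseline, in animals that were neither resuscitated nor infused. Against the mean of CA5, CA20 and CA30, 210 probe sets were higher in SAL180 (1.25%) and 85 lower (0.506%). This comparison shares the SAL180 arrays, and its counts fell without SAL180 replicate 1 (119 and 41) and without replicate 3 (121 and 50), and to 129 higher without replicate 2. HSPA6 stood 5.20 ± 0.16 above these 9 arrays, against 5.27 for CA0, BAG3 3.01 ± 0.24 and ATF3 2.21 ± 0.24. FOS, not called against CA0, was called here (1.44 ± 0.33, adjusted p = 0.0182), though its difference from CA0 was no smaller (1.53). Its CA5 replicates 1 and 2 read 2652 and 2287, above the lowest SAL180 array (2157).

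A few named genes looked different against this baseline. GGA2 differed by 0.25 ± 0.25 (adjusted p = 0.8), and every CA5, CA20 and CA30 array lay above those of CA0. ENPEP was at -0.40 ± 0.15 (adjusted p = 0.273) and SLA-DMB at -0.46 ± 0.16 (adjusted p = 0.19). The called probe set whose arrays overlapped with CA0 was at -0.54 ± 0.33 (adjusted p = 0.599), below 0 where it had been above.

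**Figure D5:**
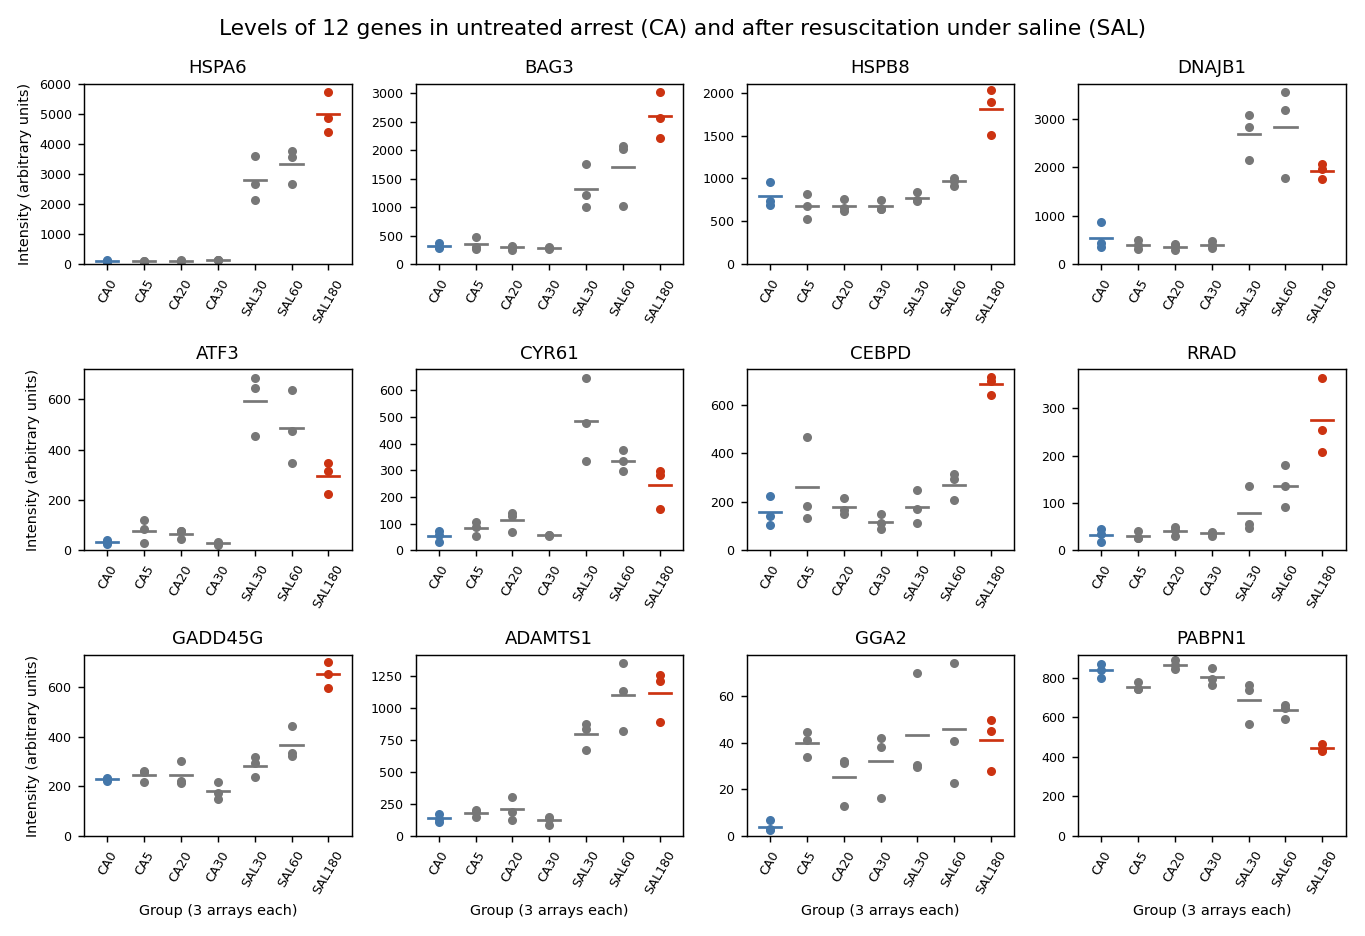
Intensity (arbitrary units, linear axis from 0) of 12 genes on each of the 3 arrays of CA0, CA5, CA20, CA30, SAL30, SAL60 and SAL180; horizontal strokes are group means. HSPB8, CEBPD and GADD45G have their highest means in SAL180 and ATF3 and CYR61 in SAL30, and the CA0 arrays of GGA2 lie below all others shown.

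SAL180 was also compared with SAL30, other animals after the same arrest and saline rate. A SAL30 array had the lowest median correlation with the other arrays of all 30 (0.933). SAL30 replicate 1 stood apart for some named genes, such as CAMK2B (2086 against 4578 and 4340 on replicates 2 and 3) and DDIT4 (2172 against 1049 and 1098). Cortex at 30 min was taken while saline was still running and cortex at 180 min after it had ended, so time and the end of the infusion cannot be told apart. Between these groups 70 probe sets were higher at 180 min (0.417%) and 40 lower (0.238%). Most named genes were picked by their difference between SAL180 and CA0, and this comparison shares the SAL180 arrays. That choice favours differences of the same sign from SAL30. CEBPD had the largest difference among named genes: it read 250, 168 and 112 at 30 min and 313, 293 and 207 at 60 min, and was higher at 180 min by 1.92 ± 0.34 (adjusted p = 0.00453). RRAD followed at 1.70 ± 0.37 (adjusted p = 0.0258), from 135, 54.7 and 46 at 30 min. HSPB8 was at 843, 752 and 741 at 30 min, within the CA0 range, and was higher at 180 min by 1.19 ± 0.15 (adjusted p = 0.000163).

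GADD45G, CRISPLD2, FUCA2, DDIT3, IER5 and PLAT were also higher at 180 than at 30 min, by 1.16, 1.08, 1.12, 0.76, 0.69 and 0.69 (adjusted p = 0.00207 to 0.0399). HSPA6 was 0.86 ± 0.20 higher (adjusted p = 0.0333), after 2673, 2133 and 3602 at 30 min, which were all far above CA0. HSP70.2 and SLC2A3 did not pass, with differences of 0.11 ± 0.39 and 0.08 ± 0.15. ATF3, CYR61 and FOS had lower means at 180 than at 30 min, but the differences of -0.97 ± 0.30, -0.95 ± 0.29 and -0.58 ± 0.41 did not pass (adjusted p = 0.144, 0.144 and 0.544).

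Lower transcripts also differed between the times. DYNC1I2 was lower at 180 than at 30 min by 1.24 ± 0.24 (adjusted p = 0.0113), POMT2 by 0.79 ± 0.17, LUC7L3 by 0.79 ± 0.14 and PABPN1 by 0.61 ± 0.12. The values of DYNC1I2 and PABPN1 are those of the named probe set, and their other probe sets are not given for this comparison. LUC7L3 and POMT2 at 30 min read 1090 to 1246 and 67.6 to 82.4, close to CA0. The log2 3'/5' ratio of the controls ran from 1.22 to 1.35 in SAL30 and 1.39 to 2.60 in SAL180, and with that ratio as a covariate the counts between the times were 39 and 25. They were 23 and 20 without SAL180 replicate 3, 30 and 18 without replicate 1, 100 and 33 with median centring, and 1 and 3 in a fit to the 6 arrays alone.

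MB180 addressed whether methylene blue, an inhibitor of nitric oxide synthase and guanylate cyclase, altered levels at the same time. Of the 78 named probe sets that of FBXW7 alone was called between MB180 and SAL180, higher under methylene blue by 1.04 ± 0.25 (adjusted p = 0.0345). It was dim in SAL180 (mean intensity 44.5). It had been named for its fall on these same SAL180 arrays, a choice that favours a higher value in MB180. Brighter probe sets of the gene were not called against CA0, and their values in MB180 are not given here. HSPA6 differed by 0.07 ± 0.20, BAG3 by 0.27 ± 0.30 and CEBPD by 0.54 ± 0.34, none of which passed. Over all probe sets 215 were higher (1.28%) and 104 lower (0.619%) in MB180, but the log2 3'/5' ratio was 0.97 to 1.20 there, below every SAL180 array, and with the ratio as a covariate 15 and 3 were called. Median centring gave 170 and 502, quantile normalization 143 and 119, and leaving out SAL180 replicate 3 gave 19 and 4.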

How the data were processed

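The deposited values are array intensity on a linear scale; the submitters' processing notes name GCOS, with no version or algorithm given in the sources used here. Per the values the authors deposited, the mean intensity without the lowest and highest 2% was about 300.05 on every array. Of 24123 probe sets, 124 controls (AFFX) were left out; 10110 of the rest had 1 symbol in the platform annotation, 157 several and 13732 none. Values were analysed as log2(intensity + 16), which understates changes of dim genes. Probe sets with a mean under the 30th percentile (intensity about 29.5) were left out. limma 3.58.1 in R 4.3.3 fitted a mean for each of 10 groups over 30 arrays (20 residual degrees of freedom), with eBayes moderation along intensity. Tests were two-sided, p was adjusted by Benjamini-Hochberg per contrast (threshold 0.05), and the fit was tested on simulated data. List values use each gene's brightest probe set. Named were the 25 largest called rises and all 9 called falls with 1 symbol and no overlap (the rule allowed 12), the 3 smallest p of each of 18 lists, and HSPA6, BAG3, CEBPD, FOS, EGR1, HMOX1, PTGS2, NOS2, GFAP, MBP and CLDN5; other list and marker members given beside a count were picked after their values were seen. The groups, lists and rules were chosen with earlier results of these data known. Same-numbered CA0 and SAL180 arrays did not deviate together (correlations -0.05, 0.05 and -0.07), while differently numbered ones ran from -0.15 to 0.16. So few values cannot exclude a link behind the numbers, and the main fit did not pair arrays by number. Arrays have no counts; 3 arrays a group limit the precision. Promoter and protein sequences were not used here.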

Additional observations from a re-analysis of the deposited data

Results flagged for a closer look

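Named genes whose level differed between 180 and 30 min after ROSC under saline, by the limma test of that difference, are given as log2 differences, SAL180 minus SAL30. They were CEBPD at 1.92, RRAD at 1.70, HSPB8 at 1.19, GADD45G at 1.16, FUCA2 at 1.12, CRISPLD2 at 1.08, HSPA6 at 0.86, DDIT3 at 0.76, IER5 at 0.69 and PLAT at 0.69. Below 0 were DYNC1I2 at -1.24, POMT2 at -0.79, LUC7L3 at -0.79 and PABPN1 at -0.61. DYNC1I2 and PABPN1 had been called lower than CA0 on the named probe set alone. Few probe sets were called between SAL180 and SAL30 in a fit to these groups alone. The named FBXW7 probe set, dim in SAL180 (mean intensity 44.5), differed between the infusions at 180 min, with MB180 minus SAL180 at 1.04. Values of the gene's brighter probe sets are not given for that comparison. Most of these genes were named for their difference between the same SAL180 arrays and CA0, a choice that favours such differences. The groups compared hold different animals, and the 3'/5' ratio of control transcripts differs between them as well. A SAL30 array also had the lowest median correlation with the other arrays of all 30 (0.933).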

How the results depend on the processing

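Of the 40 named probe sets called against CA0, 27 kept their call whichever array was left out and 22 under every alternative run. Against CA0, array weights called 218 higher and 144 lower, the 6 arrays alone 40 and 15, and leaving out 1 array 64 to 89 and 25 to 44; the replicate number as a block gave 101 and 44, and the 3'/5' ratio as a covariate, chosen after seeing the data, 108 and 51. Against SAL30, array weights gave 176 and 106, the compared groups alone 1 and 3, the 3'/5' covariate 39 and 25, and leaving out 1 array 23 to 66 and 18 to 48. Against untreated arrest, array weights gave 481 and 307, and leaving out 1 array 119 to 205 and 41 to 88. For MB180 against SAL180, array weights gave 717 and 541, the compared groups alone 14 and 1, the 3'/5' covariate 15 and 3, adjustment over all contrasts 134 and 61, the 50th percentile filter 120 higher, quantile normalization 143 higher, median centring 502 lower, and leaving out 1 array 19 to 373 and 4 to 238. Genes not called changed sign with 1 array left out: SYN1 ran from -0.032 to 0.18, GFAP from -0.090 to 0.21, MBP from -0.17 to 0.10, CAMK2B from -0.12 to 0.0021, GAD1 from -0.20 to 0.10, PTGS2 from -0.35 to 0.20 and INHBA from -0.26 to 0.040. GFAP was at -0.012 with the covariate, MBP at 0.016 with quantile normalization, and GAD1 at 0.028 and INHBA at 0.0087 with array weights. The cause of these shifts was not tested. Signal near background limits genes such as GGA2 and NOS2.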
